A study of Drosophila melanogaster with 6 samples.

Results

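Tubulin transcripts were followed from the germline stem cell to the spermatid, and through the somatic cells of the same testes, for 10 genes of Drosophila melanogaster. The set holds 4 alpha tubulin genes (alphaTub84B, alphaTub84D, alphaTub85E and alphaTub67C), 4 beta tubulin genes (betaTub56D, betaTub60D, betaTub85D and betaTub97EF) and 2 gamma tubulin genes (gammaTub23C and gammaTub37C). They were chosen by gene name, as 10 of the 17612 genes counted, and all 10 had at least 1 count in the cells kept.

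Microtubules are polymers of alpha and beta tubulin dimers, and gamma tubulin nucleates them at centrosomes and other organizing centers. Flies, like other animals, carry several genes for each family, called isotypes, and some of these are used in few tissues. The male germline is the best known case, since a testis-specific beta tubulin builds the meiotic spindle, the cytoplasmic microtubules and the sperm tail axoneme after the mitotic divisions of the spermatogonia have ended.

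The testes came from adult males of 2 genotypes in 3 age windows, 3–5, 6–8 and 9–11 d, with 1 droplet library (10x Genomics, 3′ end counting) per genotype and age, and each library pooled about 100 pairs of testes. The wild-type strain was Oregon R. The mutant strain was ChinmoST, written chinmoST here, an allele that the study describes as lowering the transcription factor Chinmo in cyst stem cells (CySCs) and their progeny, the somatic cells that enclose the germ cells. The label field for its genotype gives Sod1[X-39] together with e[1], over the balancer chromosome TM3 marked by Sb[1] and Ser[1], and names no chinmo allele, so any effect of that third-chromosome background and of chinmoST cannot be told apart. Spermatids were filtered out of the cell suspensions before capture, so the spermatids described are those that remained.

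The 6 libraries held 31832 barcodes and 611192015 unique molecular identifiers (UMIs, each marking 1 captured RNA molecule). The authors' table kept 26549 cells and named 17 cell types, 6 of the germline (14152 cells) and 11 somatic (12397 cells), and these names were used as given. Kept cells held 24746443 to 41822738 UMIs per library, which was 20.4 to 51.8% of all UMIs. Barcodes with over 6000 genes, which the authors removed, held 47.4 to 76.4%. The median kept cell had 1865 to 4123 UMIs. Of 64 marker entries of the study, 45 were highest in the type they mark and 57 were among its 3 highest types, but no marker of late spermatocytes, early cyst cells or intermediate cyst cells was highest there. The 3–5 d libraries of both genotypes shared 255 barcodes, 34 of them kept in both, while other pairs shared 0 to 93. Leaving out the 523 kept cells whose barcode was present in another library changed no direction among the 6 germline values of betaTub85D given below.

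Levels are given as CPM, the UMIs of a gene per 1000000 UMIs summed over the cells of a type in a library. A UMI marks the 3′ end of a molecule, so no scaling by transcript length was needed to set genes side by side. Means are given ± SD over 3 libraries. Because the cell types were made by clustering these same cells, a type against another type is described by its levels and by the number of libraries that share the order, with no test. The libraries of a genotype differ in age, so the SD and every p-value include the effect of age, and the pooled testes of a library count as 1 sample.

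Within each family a few genes gave most of the transcripts. Of 605652 alpha tubulin UMIs in kept cells, alphaTub84B gave 70.7%, alphaTub85E 17.9% and alphaTub84D 11.4%, and alphaTub67C gave 21 UMIs. Of 543309 beta tubulin UMIs, betaTub85D gave 67.3%, betaTub56D 23.7%, betaTub60D 8.67% and betaTub97EF 0.352%. Gamma tubulin was far scarcer, with 3104 UMIs, of which gammaTub23C gave 94.4%. The germline held 90.4% of the UMIs of betaTub85D and 83.7% of those of alphaTub84D, but 19.9% for betaTub56D, 2.72% for alphaTub85E and 2.03% for betaTub60D. The map of mean wild-type levels shows this division between germline and soma.

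**Figure D1:**
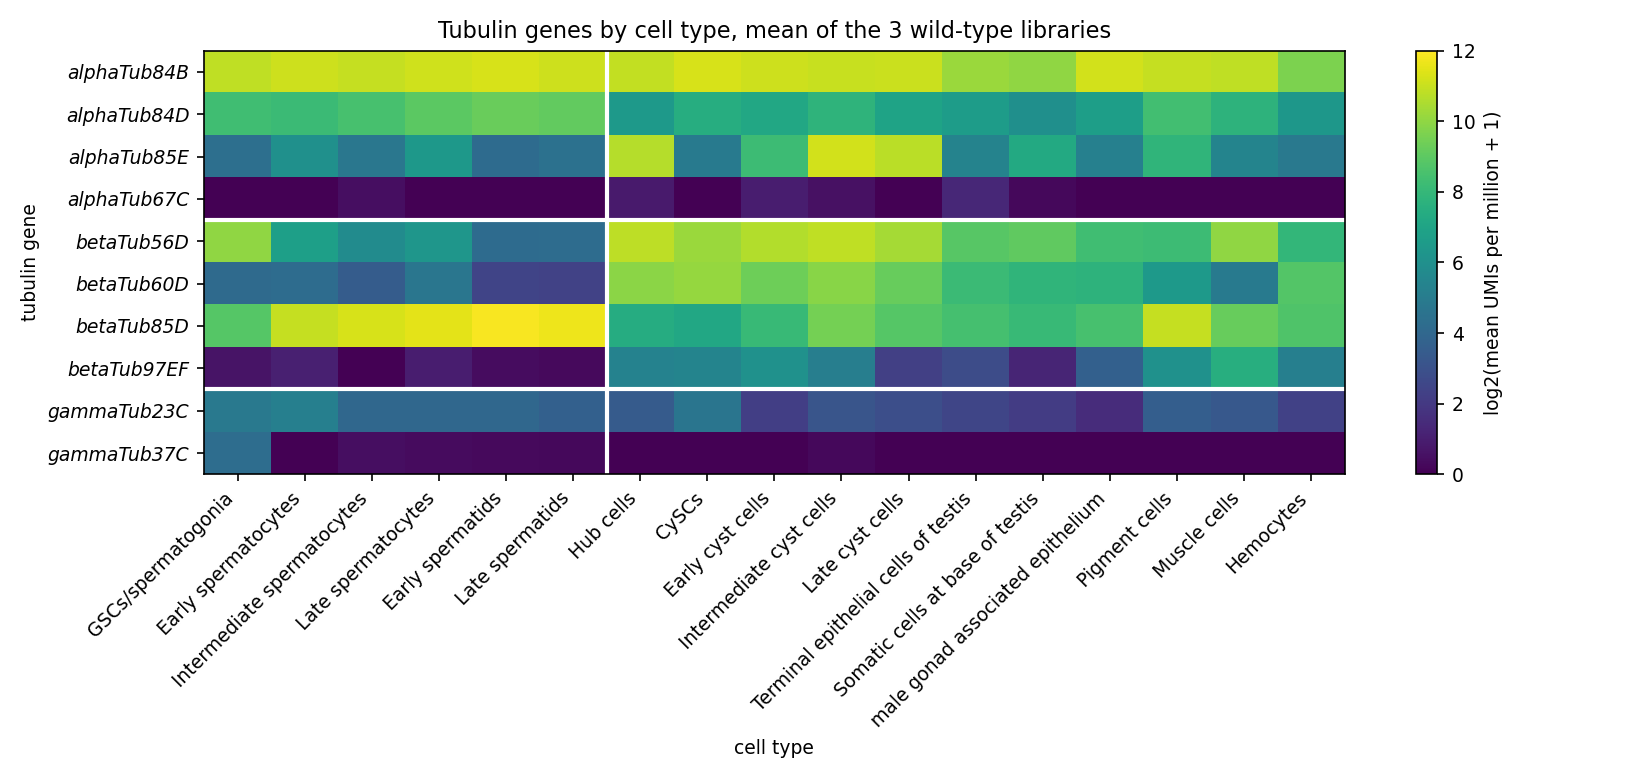
Mean level of the 10 tubulin genes in the 17 cell types of wild-type testes, as log2(CPM + 1) over 3 libraries, with germline types first. betaTub85D fills the germline columns from early spermatocytes on, alphaTub85E and betaTub60D fill the cyst cell and hub columns, and alphaTub84B is present in every column.

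The main beta tubulin of the germline differed between the earliest germ cells and the early spermatocytes in 5 of 6 libraries. betaTub56D (FBgn0284243, chromosome 2R, 19447319 to 19451600, minus strand, BDGP6 annotation of the dm6 genome) encodes the beta tubulin used by most dividing cells. In the type that joins germline stem cells and spermatogonia (GSCs/spermatogonia), it stood at 1670.0, 322 and 1069 CPM in the wild-type libraries of 3–5, 6–8 and 9–11 d. In chinmoST it stood at 1894, 1312 and 1158 CPM at the same ages. These values overlap between genotypes, and in wild-type they came from 18, 6 and 4 cells with 1005, 7 and 23 betaTub56D UMIs.

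In early spermatocytes, which have left the mitotic divisions, betaTub56D stood at 195, 57.4 and 67.2 CPM in wild-type libraries, against 297, 244 and 326 CPM in the chinmoST ones. It was lower than in GSCs/spermatogonia in 6 of 6 libraries, by 9.57-fold between the wild-type means and by 3.55- to 15.9-fold over the libraries. It fell again into intermediate spermatocytes, to 54.0 ± 14.2 CPM in wild-type and 107 ± 5.51 CPM in chinmoST, and was then higher in late spermatocytes in 6 of 6 libraries, at 77.3 ± 21.9 and 137 ± 21.2 CPM. Early spermatids had the least of it among wild-type germline types, at 17.3 ± 8.69 CPM in wild-type, close to the 17.7 ± 5.10 CPM of late spermatids, and 58.9-fold below GSCs/spermatogonia.

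betaTub85D (FBgn0003889, 3R, 9408383 to 9410282, minus strand), the testis-specific beta tubulin of meiosis and of the sperm tail, moved in the opposite direction. In GSCs/spermatogonia it stood at 201, 736 and 418 CPM in wild-type libraries, against 64.0, 71.7 and 31.1 CPM in the chinmoST ones, so that the genotypes did not overlap. The wild-type values came from 121, 16 and 9 UMIs. In early spermatocytes it stood at 1733, 2367 and 1898 CPM in wild-type libraries, against 1069, 772 and 1093 CPM in the chinmoST ones. It was thus higher than in GSCs/spermatogonia in 6 of 6 libraries, by 4.42-fold between the wild-type means, and again the genotypes did not overlap.

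From there betaTub85D was higher at each later stage up to early spermatids in 6 of 6 libraries. The wild-type means were 2500 ± 170 CPM in intermediate spermatocytes, 2951 ± 178 CPM in late spermatocytes and 3810 ± 545 CPM in early spermatids. The chinmoST means at these stages were 1972 ± 103, 2421 ± 302 and 3535 ± 368 CPM. Late spermatids had less than early spermatids in 5 of 6 libraries, at 3353 ± 314 and 3183 ± 234 CPM in the same order of genotypes. In the plot of both genes by stage, betaTub56D is the higher at the first stage and betaTub85D at every later one in 5 of 6 libraries. The exception is wild-type 6–8 d, where betaTub85D (16 UMIs) was already above betaTub56D (7 UMIs) in GSCs/spermatogonia.

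**Figure D2:**
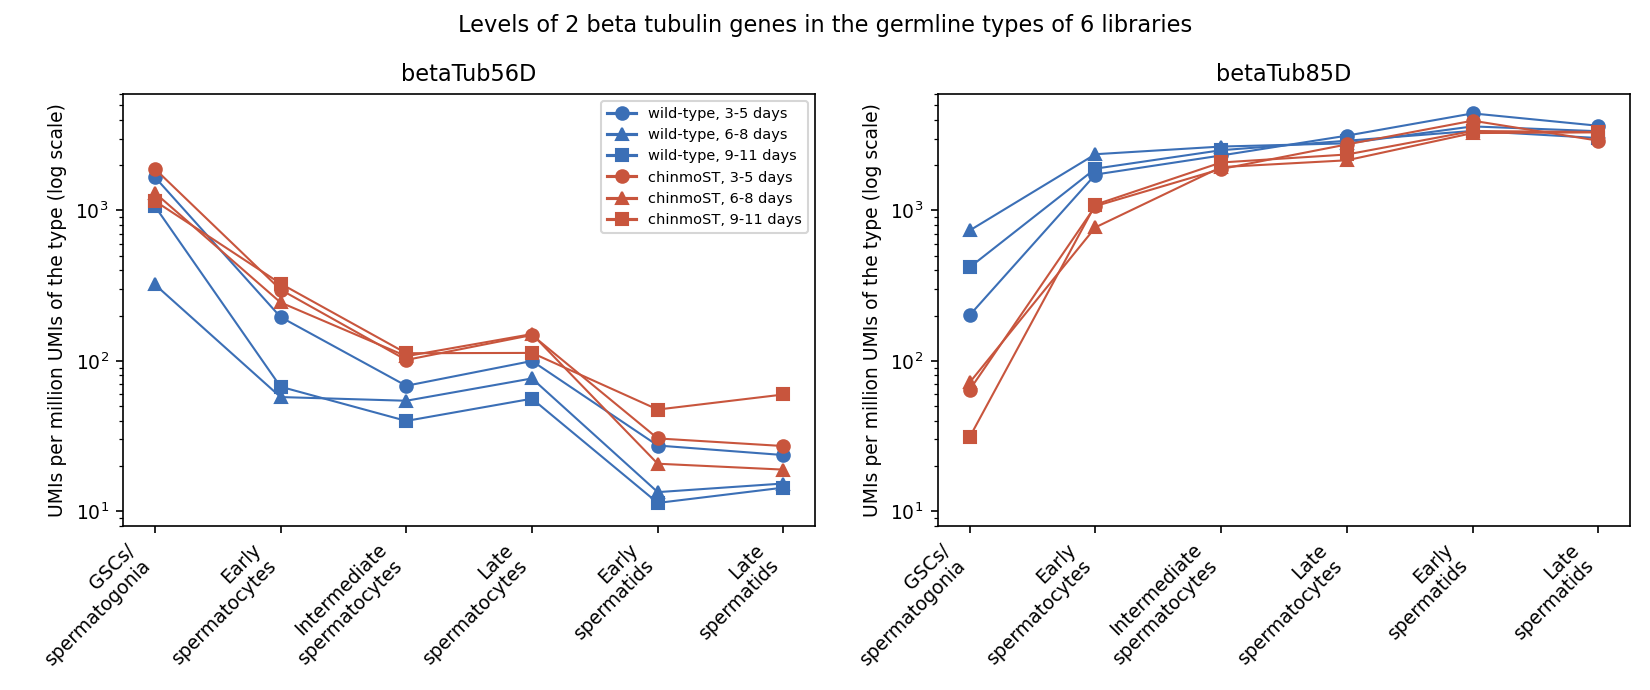
Levels of betaTub56D and betaTub85D (CPM, log axis) in the 6 germline types, with a point for each of the 6 libraries. betaTub56D lies between 322 and 1894 CPM in GSCs/spermatogonia and at no more than 59.6 CPM in spermatids, while betaTub85D lies between 31.1 and 736 CPM in GSCs/spermatogonia and at 2913 CPM or above in spermatids.

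Sorting out the beta tubulin UMIs alone gives a share that does not depend on the scaling of a library. In wild-type early spermatocytes betaTub85D made up 88.5, 97.3 and 95.8% of beta tubulin UMIs, and in chinmoST 77.3, 75.0 and 76.4%. The means were 93.8 ± 4.72% and 76.2 ± 1.15%, with no overlap between the genotypes. In GSCs/spermatogonia it made up 10.5, 69.6 and 28.1% in wild-type libraries, against 3.25, 5.17 and 2.61% in the chinmoST ones. The wild-type share there was widely spread, its 6–8 d value rests on 23 beta tubulin UMIs (95% exact binomial interval 47.1 to 86.8%), and without that library the difference between the means went from -32.4 to -15.6 percentage points.

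In all later stages betaTub85D was nearly the only beta tubulin, and the chinmoST share stayed below the wild-type share. It was 97.5 ± 0.53% against 94.5 ± 0.15% in intermediate spermatocytes and 96.6 ± 0.78% against 93.3 ± 1.09% in late spermatocytes. In early spermatids it was 99.4 ± 0.13% against 99.0 ± 0.39%, and in late spermatids 99.3 ± 0.11% against 98.6 ± 0.65%. The 10 somatic genes, measured beside betaTub56D as the competing isotype, summed to more in chinmoST at 3 of 3 ages in late spermatocytes and in spermatids. In early spermatids they summed to 122, 103 and 80.0 CPM in wild-type libraries, with 169, 208 and 120.1 CPM in chinmoST ones. The sum does not speak for each gene. In the edgeR test described below, their median log2 fold change (chinmoST over wild-type) was -0.09 in late spermatocytes (6 tested). It was -0.05 in early spermatids (9 tested) and 0.07 in late spermatids (4 tested). alphaTub85E, also mostly somatic, was lower in chinmoST at 3 of 3 ages in late spermatocytes and early spermatids. The part of the 10 genes in the lower share was not tested. The 2 genotypes did not overlap in 6 of 6 germline types. Each of these comparisons gave p = 0.1 in the two-sided exact permutation test over the 3 and 3 libraries, which is the smallest p this design allows, and an adjusted p of 0.183 over 11 share comparisons, so none passed the threshold.

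**Figure D3:**
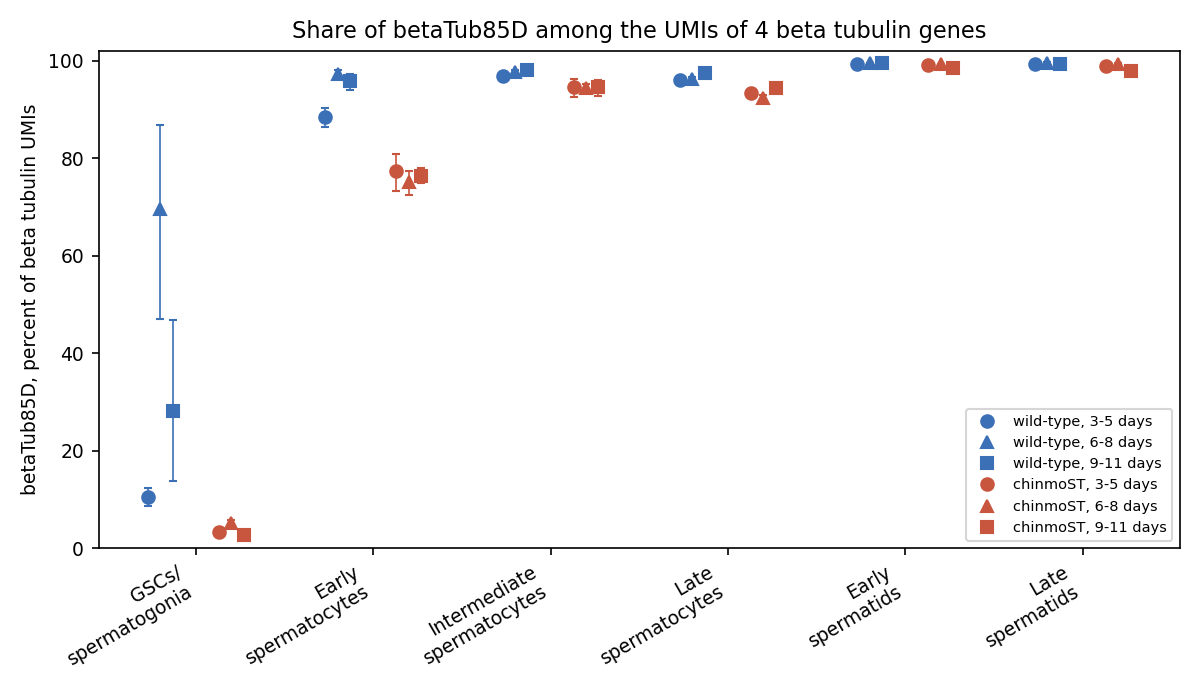
Share of betaTub85D among the UMIs of 4 beta tubulin genes (percent) in the 6 germline types, with a point per library and a bar for the 95% exact binomial interval, which covers counting error only. chinmoST points lie below all wild-type points in each type, with the widest gap in GSCs/spermatogonia and early spermatocytes.

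Cells were then read individually where they had at least 5 beta tubulin UMIs. In early spermatocytes betaTub56D outnumbered betaTub85D in 6.85, 0 and 2.17% of such wild-type cells (73, 85 and 46 cells), and in 17.6, 26.7 and 19.8% of chinmoST cells (34, 60 and 222 cells). In wild-type GSCs/spermatogonia betaTub56D was ahead in 16 of 18, 0 of 2 and 2 of 3 cells, and in chinmoST ones in 49 of 49, 80 of 87 and 130 of 137. Too few wild-type cells of the later ages reached the minimum to give a share there, and cells with UMIs of both genes are not read as a stage, since free RNA also gives UMIs.

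Several other measures moved with genotype in the early spermatocyte type, and their part in the tubulin difference was not tested. The 5 matched markers of GSCs/spermatogonia (aub, bam, stg, vas and zpg) summed to 59.7, 14.0 and 64.0 CPM there in wild-type and to 118, 165 and 189 CPM in chinmoST, against 414 to 1069 CPM in GSCs/spermatogonia themselves, and 5 of 5 were higher in chinmoST at 3 of 3 ages. The reverse held for the 5 early spermatocyte markers (Rbp4, wuc, kmg, nht and Taf12L) in GSCs/spermatogonia, at 688, 1702 and 651 CPM in wild-type libraries, against 249, 122 and 142 CPM in the chinmoST ones. Depth differed too, with medians of 3518, 3308 and 2581 UMIs per wild-type early spermatocyte and 1673, 1390 and 1476 per chinmoST one. A list of 10 genes of somatic cells, of which 6 to 9 had a UMI, summed to 293, 220 and 205 CPM in wild-type early spermatocytes. The sum was higher in chinmoST at each age, with 398, 278 and 352 CPM, but it does not speak for each gene. Of the list, 3 genes had enough counts for the edgeR test described below. Their median log2 fold change, chinmoST over wild-type, was -0.47. Of the 3, 1 was higher at an adjusted p under 0.05, beside 4.03% of all genes past that threshold. alphaTub85E, also mostly somatic, was lower there at each age, from 110, 49.6 and 32.0 CPM to 104, 13.0 and 21.5 CPM. Somatic cells held most of the betaTub56D UMIs. Restricted to early spermatocytes with no UMI of the GSCs/spermatogonia markers, a choice made after seeing the data, the betaTub85D share was 94.9 ± 3.48% in wild-type and 84.2 ± 1.60% in chinmoST. The difference of -10.7 percentage points compares with -17.6 in all early spermatocytes, again with no overlap and p = 0.1 (exact permutation test). Lacking a marker UMI does not place a cell past the earlier stage. Among GSCs/spermatogonia themselves only 50.0% of wild-type and 73.0% of chinmoST cells at 6–8 d had one. A marker is also easier to miss at the lower depth of the chinmoST early spermatocytes. The part of stage in the remaining difference was not tested.

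The level of each gene was also compared between genotypes with the edgeR quasi-likelihood test across all genes, in which fold changes are chinmoST over wild-type on the log2 scale and a gene is called at an adjusted p under 0.05. In early spermatocytes 0 of 6 tested tubulin genes were called and 2 had an unadjusted p under 0.05. Of 6501 genes, 4.03% were called and 1952 had an unadjusted p under 0.05. betaTub56D was 1 of the 2 tubulin genes, with a log2 fold change of 1.59 (SE 0.41, adjusted p = 0.0562). The other was betaTub85D, with -0.85 (SE 0.30, adjusted p = 0.106). DESeq2 called both, at 1.57 (adjusted p = 0.00765) and -0.89 (adjusted p = 0.0163), beside 5.61% of its 7899 genes. Their genotypes did not overlap in CPM, as was the case for 34.7% of the genes in this type.

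In GSCs/spermatogonia 0 of 7 tubulin genes were called by edgeR and 1 had an unadjusted p under 0.05. Of 6469 genes, 0.34% were called and 1235 had an unadjusted p under 0.05. The 1 tubulin gene was betaTub85D, with -2.04 (SE 0.70, adjusted p = 0.0857). DESeq2 called it at -2.12 (adjusted p = 0.0473), beside 1.43% of 8125 genes. The median of all genes in this type lay at 0.42 with the scaling of edgeR and at -0.68 in DESeq2, so directions near 0 there turn with the scaling. The germline genes fixed for a check of free RNA had a median of -1.71 in this type and of -0.53 in early spermatocytes, beside the lower betaTub85D. betaTub56D gave 0.98 in GSCs/spermatogonia (adjusted p = 0.546). The genotypes did not overlap for betaTub85D, as for 22.1% of genes.

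In intermediate spermatocytes 0 of 6 were called and 3 had an unadjusted p under 0.05. Of 6006 genes, 0.466% were called and 958 had an unadjusted p under 0.05. betaTub56D gave 0.86 (SE 0.25, adjusted p = 0.180), and with age as a block 0.88 (SE 0.22, adjusted p = 0.0366, with 6.59% of genes called). betaTub85D gave -0.46 (SE 0.19, adjusted p = 0.302), and alphaTub84D -0.50 (SE 0.21, adjusted p = 0.295). In late spermatocytes 0 of 7 were called by edgeR, and 1 had an unadjusted p under 0.05. There 0% of 7662 genes were called, with 912 at an unadjusted p under 0.05 and 181 called by DESeq2. betaTub56D gave 0.68 (SE 0.24, adjusted p = 0.332) and, with age as a block, 0.70 (SE 0.14, adjusted p = 0.0232, 4.11% of genes called). Markers of other cell types were higher beside it, and their part was not tested. The 5 GSCs/spermatogonia markers summed to 7.41, 7.59 and 9.04 CPM in wild-type intermediate spermatocytes and to 16.9, 41.4 and 56.1 CPM in chinmoST ones. The sum of the 10 somatic genes was higher there at 2 of 3 ages. In late spermatocytes the 5 markers went from 10.6, 8.56 and 4.06 CPM to 13.6, 50.2 and 34.0 CPM. The sum of the somatic genes there went from 281, 336 and 256 CPM to 664, 386 and 355 CPM, though the 6 tested had a median of -0.09. betaTub56D did not overlap between the genotypes in either type, as for 22.1% and 19.4% of genes, and neither did betaTub85D.

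In spermatids the fold changes of betaTub85D were the smallest among the germline types. In early spermatids 0 of 7 tubulin genes were called and 0 had an unadjusted p under 0.05. Of 9276 genes, 1.63% were called and 1089 had an unadjusted p under 0.05. betaTub85D gave -0.19 there (adjusted p = 0.748). In late spermatids 0 of 7 were called, against 0.68% of 6472 genes, of which 581 had an unadjusted p under 0.05. betaTub85D gave -0.12 (adjusted p = 0.944). The sole tubulin with an unadjusted p under 0.05 was betaTub60D, at 0.91 (SE 0.39, adjusted p = 0.545), from 3.74, 3.13 and 5.73 CPM in wild-type libraries, against 7.74, 6.99 and 9.54 CPM in the chinmoST ones. Its values did not overlap, as was the case for 14.5% of genes, but its counts were low, at 8 to 26 UMIs per library. The sum of the 10 somatic genes was also higher there at each age. It was 118, 79.0 and 56.7 CPM in wild-type libraries and 148, 107 and 97.8 CPM in chinmoST ones. The 4 of them that were tested had a median of 0.07, and their part in the betaTub60D value was not tested.

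betaTub85D was also counted in somatic cells. Intermediate cyst cells had 1101, 687 and 383 CPM in wild-type libraries, against 564, 300.4 and 271 CPM in the chinmoST ones, and pigment cells, of the sheath around the testis, had 2126, 2287 and 1570.0 CPM in wild-type libraries, against 1111, 672 and 1523 CPM in the chinmoST ones. These levels went together with the summed level of 19 other genes of spermatocytes and spermatids, such as fzo, dj and Mst87F. For each UMI of those 19 genes there were 0.110 to 0.167 UMIs of betaTub85D in the germline types (medians of 6 libraries) and 0.0825 to 0.131 in the 11 somatic types. In pigment cells the list itself summed to 5702 to 16744 CPM. Single libraries of somatic types ranged from 0.0444 to 0.218. In chinmoST, late cyst cells (0.0592 to 0.0704) and somatic cells at the base of the testis (0.0444 to 0.0767) were below every germline library. The medians of somatic and germline types overlapped, and counts of betaTub85D in somatic types are not read here as expression by those cells.

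**Figure D4:**
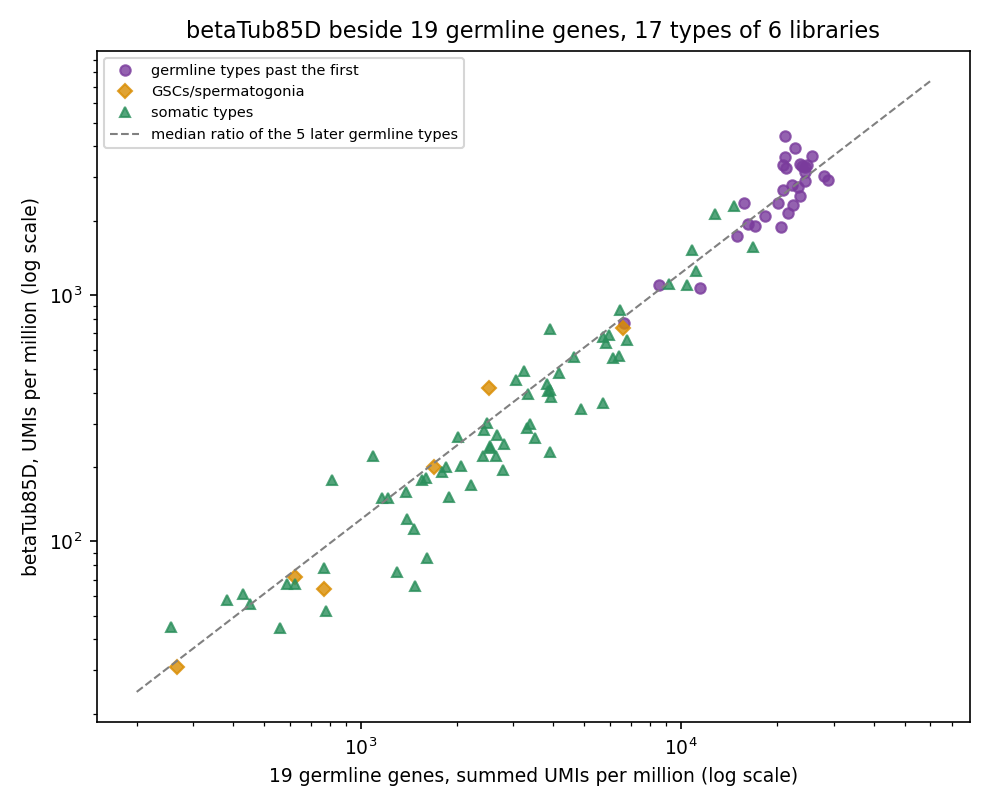
betaTub85D (CPM) against the summed level of 19 germline genes (CPM) for each library and cell type, both on log axes, with the dashed line at the median ratio of the 5 later germline types. Somatic points lie on both sides of the line, most of them below it, at medians of 0.0825 to 0.131 betaTub85D UMIs per UMI of the list. All points of early, intermediate and late cyst cells lie below it. So do those of somatic cells at the base of the testis in chinmoST.

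The share of cells with a UMI shows the same background. After thinning each cell to 1000 UMIs, betaTub85D was detected in 73.2 ± 14.1% of early spermatocytes (mean of 6 libraries) and in 90.6 ± 3.78% of late spermatocytes. In hemocytes, blood cells that should lack it, it was detected in 33.1 ± 23.3%, and in hub cells in 14.4 ± 4.97%. GSCs/spermatogonia, at 28.5 ± 21.2%, lay within the range of these somatic types, so their betaTub85D was not distinguishable from background by this measure. Unthinned median depths were 1807 to 63120.5 UMIs in GSCs/spermatogonia and 1825 to 13720.0 UMIs in hemocytes, and the unthinned share in GSCs/spermatogonia was 84.4%. betaTub56D was detected in 58.6 ± 29.4% of thinned GSCs/spermatogonia, 16.5 ± 9.22% of early spermatocytes and 5.26 ± 3.02% of early spermatids. None of the types is known to lack betaTub56D, so the share in early spermatids, the lowest of the 17 types, stands in for a background.

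betaTub56D was the most abundant beta tubulin of the niche and of the cyst lineage, in 6 of 6 libraries in each type except CySCs, where it was above betaTub60D in 5 of 6. Hub cells, which form the stem cell niche, had 1814 ± 248 CPM in wild-type and 1697 ± 192 CPM in chinmoST. Intermediate cyst cells had 1830 ± 224 and 1795 ± 170 CPM, and the order of these types did not hold across libraries. It was lower in pigment cells, at 158 to 405 CPM, and in hemocytes, at 149.5 to 329 CPM.

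betaTub60D (annotated as FBgn0288686, 2R, 24305881 to 24313099, plus strand, counted under an older identifier), a beta tubulin known from mesoderm and from the somatic cells of the testis, was a second cyst lineage isotype. Hub cells had 592, 1201 and 1127 CPM in wild-type libraries, against 719, 1201 and 1183 CPM in the chinmoST ones. Intermediate cyst cells had 366, 1135 and 1299 CPM in wild-type libraries, against 571, 1209.6 and 1149.8 CPM in the chinmoST ones. In hub, intermediate cyst and late cyst cells the 3–5 d library was the lowest in both genotypes. Each age is 1 library per genotype, so age and library cannot be told apart.

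In CySCs, the stem cells of the cyst lineage, betaTub60D stood at 476, 982 and 1851 CPM in wild-type libraries, against 185, 578 and 253 CPM in the chinmoST ones. At each of the 3 ages the chinmoST value was the lower, although the genotypes overlapped, with a log2 fold change of -1.49 (SE 0.58, adjusted p = 0.499), which was -0.81 without wild-type 9–11 d and -1.88 without wild-type 3–5 d. These are small groups of 9, 4 and 7 wild-type cells and 26, 33 and 31 chinmoST cells. In CySCs 0 of 6 tubulin genes were called and 1 had an unadjusted p under 0.05, against 0% of 3428 genes called by edgeR, of which 310 had an unadjusted p under 0.05, and 67 called by DESeq2. In germline types betaTub60D stayed at 0 to 49.9 CPM.

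betaTub97EF (FBgn0003890, 3R, 27967008 to 27988384, minus strand), a beta tubulin known in flies to rise in the cold, was a minor isotype throughout. Of its 1914 UMIs, 44.9% were in intermediate cyst cells, at 32.2, 34.8 and 34.1 CPM in wild-type libraries, against 42.5, 32.5 and 33.6 CPM in the chinmoST ones. Early cyst cells had more in 6 of 6 libraries, at 55.4 to 83.1 CPM. Late cyst cells had 1.94 to 4.88 CPM, below intermediate cyst cells in 6 of 6 libraries, so betaTub97EF parted the earlier from the late cyst cells. Muscle cells had 291, 264 and 0 CPM in wild-type libraries, against 218, 21.9 and 7.58 CPM in the chinmoST ones, where the values of the later ages rest on 0 to 10 UMIs. Germline types held 69 UMIs in all, at 0 to 8.42 CPM.

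alphaTub84B (FBgn0003884, 3R, 7086599 to 7088839, plus strand), the main alpha tubulin of most fly cells, was the leading alpha tubulin in all 6 germline types. In GSCs/spermatogonia it stood at 2047, 2024 and 1441 CPM in wild-type libraries, against 1954, 1649 and 1229.6 CPM in the chinmoST ones. In early spermatids it stood at 3078, 2364 and 2017 CPM in wild-type libraries, against 2952, 2299 and 2657 CPM in the chinmoST ones. Over the 6 germline types its wild-type means ran from 1838 ± 343 to 2486 ± 541 CPM, a far narrower range than that of either beta tubulin. The lowest wild-type means among all types were 804 ± 373 CPM in hemocytes and 1032 ± 344 CPM in somatic cells at the base of the testis. The genotype direction in GSCs/spermatogonia was lower in CPM at 3 of 3 ages but 0.51 on the log2 scale in edgeR (adjusted p = 0.802), so it turned with the scaling.

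alphaTub84D (FBgn0003885, 3R, 7530753 to 7532732, plus strand) encodes a protein almost the same as that of alphaTub84B, and reads from stretches the genes share could be split between them in ways the files do not show. It was mostly a germline transcript, with wild-type levels of 356, 460.1 and 139 CPM in GSCs/spermatogonia, 612, 453 and 459 CPM in late spermatocytes and 785, 539 and 535 CPM in early spermatids. The chinmoST levels in early spermatids were 665, 532 and 531 CPM. Early spermatids were above GSCs/spermatogonia in 6 of 6 libraries, by 2.13-fold between the means of all libraries. Levels of alphaTub84D were lower in the mutant at 3 of 3 ages in intermediate and late spermatocytes, early spermatids and intermediate cyst cells. In intermediate cyst cells, with 357, 172 and 132 CPM in wild-type libraries, against 217, 112 and 114 CPM in the chinmoST ones, the log2 fold change was -0.54 (SE 0.43, adjusted p = 0.731), and with age as a block -0.52 (SE 0.14, adjusted p = 0.0253, with 19.6% of genes called). It was -0.09 when the wild-type 3–5 d library was left out and -0.95 when that of chinmoST was. The 19 germline genes were lower in the same cells at each age, from 10420.4, 5947 and 3939 CPM to 6391, 3383 and 2675 CPM, and their part in the alphaTub84D value was not tested.

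alphaTub85E (FBgn0003886, 3R, 9731221 to 9733250, minus strand), a minor alpha tubulin known in flies from chordotonal organs and muscle attachment cells, was a transcript of the cyst lineage. The study describes its protein as a marker of late cyst cells. It reports the gene as downregulated in chinmoST cells of C9-ICCs1, a subcluster of the intermediate cyst cells. That type was taken whole here, so the values below do not test the report. Intermediate cyst cells had 2085, 2233 and 2577 CPM in wild-type libraries, against 2579, 2349 and 2049.8 CPM in the chinmoST ones. Late cyst cells had 1731, 1385 and 2072 CPM in wild-type libraries, against 1297, 1624 and 1738 CPM in the chinmoST ones, below intermediate cyst cells in 6 of 6 libraries. It was almost lacking at the start of the lineage, with 0 to 52.2 CPM in CySCs, from 0 to 7 UMIs per library, and 87.7 to 445 CPM in early cyst cells. Intermediate cyst cells thus had more alphaTub85E than early cyst cells in every library, and in them it made up 50.2 ± 5.96% of alpha tubulin UMIs in wild-type and 48.8 ± 0.70% in chinmoST. Germline types stayed at 0 to 117 CPM. For each UMI of 10 somatic genes, markers of other types for the most part, there were 0.958 alphaTub85E UMIs in intermediate cyst cells, 0.576 in late cyst cells and 0.0799 to 0.193 in germline types (medians of 6 libraries).

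Levels of alphaTub85E were widely spread among the hub cells of the 6 libraries. They were 2964, 1322 and 519 CPM in wild-type libraries, against 1312, 271 and 222 CPM in the chinmoST ones, lower in the mutant at each age and lower in each older library of a genotype. The log2 fold change was -1.40 (SE 0.90, adjusted p = 0.996) and, with age as a block, -1.52 (SE 0.31, adjusted p = 0.0269, with 6.05% of genes called). It was -0.38 when the wild-type 3–5 d library was left out and -2.78 when that of chinmoST was. Its share of alpha tubulin was 55.7, 44.9 and 21.1% in wild-type libraries, against 31.8, 12.3 and 7.89% in the chinmoST ones (exact permutation test p = 0.2, adjusted p = 0.314). These libraries had 10 to 31 hub cells each.

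**Figure D5:**
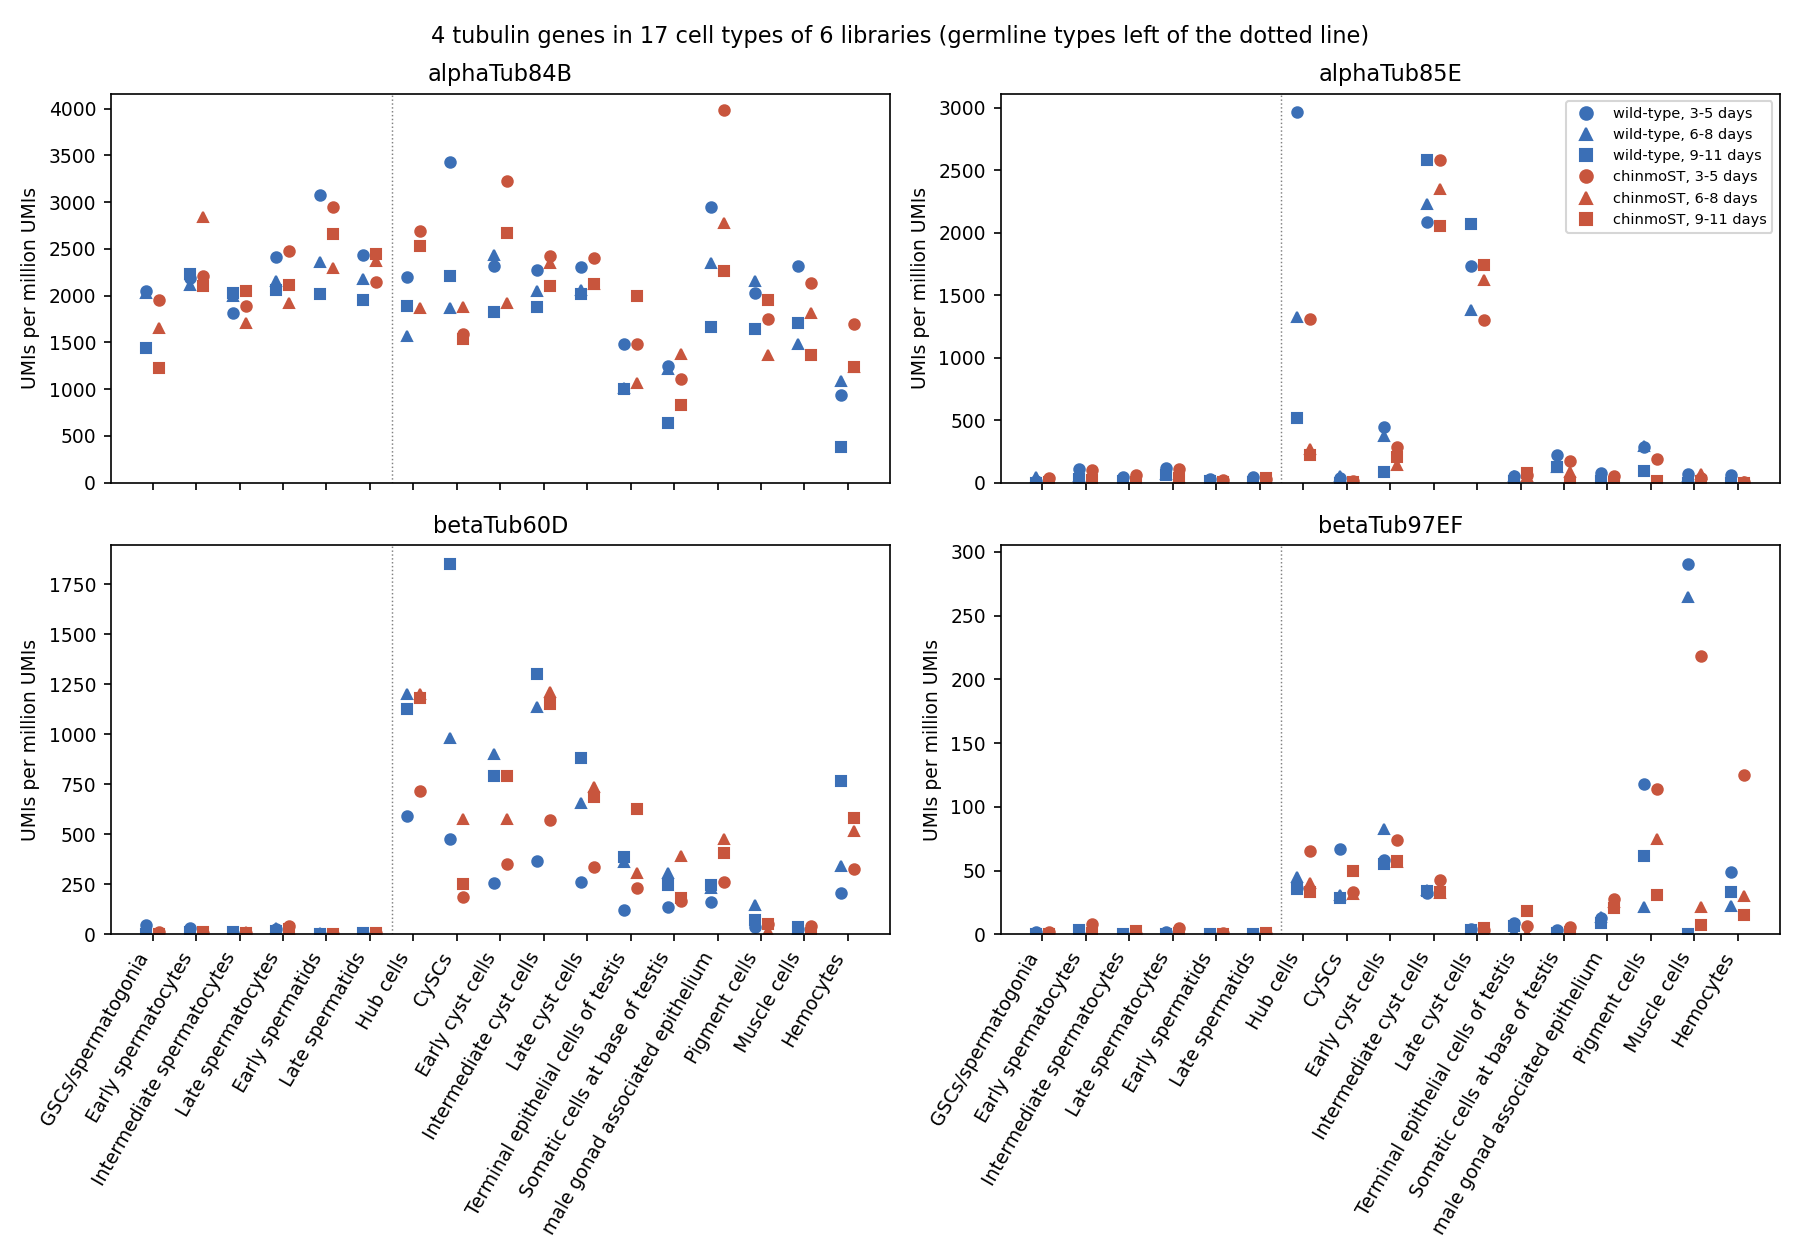
Levels of alphaTub84B, alphaTub85E, betaTub60D and betaTub97EF (CPM) in the 17 cell types, with a point per library. alphaTub84B is present in every type, alphaTub85E peaks in intermediate and late cyst cells and is spread between 222 and 2964 CPM in hub cells, and betaTub60D is high in hub and cyst lineage types and under 50 CPM in the germline.

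In the other alphaTub85E comparisons the shares differed by less than the spread between libraries. They gave exact permutation p = 0.7 in intermediate cyst cells, 0.6 in late cyst cells, 0.5 in CySCs and 0.4 in early cyst cells. In hub cells 0 of 7 tubulin genes were called by edgeR and 0 had an unadjusted p under 0.05, against 0% of 4662 genes, with 154 at an unadjusted p under 0.05 and 11 called by DESeq2. In early cyst cells 0 of 7 were called and 1 had an unadjusted p under 0.05, against 0% of 2464 genes, with 199 at an unadjusted p under 0.05 and 3 called by DESeq2. In intermediate cyst cells 0 of 8 were called and 0 had an unadjusted p under 0.05. Of 9184 genes, 0.0762% were called and 842 had an unadjusted p under 0.05. In late cyst cells 0 of 8 were called and 0 had an unadjusted p under 0.05, against 0% of 8956 genes, with 292 at an unadjusted p under 0.05 and 43 called by DESeq2.

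Over the 11 types, 76 of 110 pairs of tubulin gene and cell type passed the filter on low counts. Of these, edgeR called 0 and 10 had an unadjusted p under 0.05. Over all genes, 0 to 4.03% were called in a type. Those with an unadjusted p under 0.05 ran from 292 of 8956 in late cyst cells to 1952 of 6501 in early spermatocytes. DESeq2 gave a p-value to 103 pairs, though its own filter can leave some of these without an adjusted p. It called 3, in GSCs/spermatogonia (1.43% of genes called) and early spermatocytes (5.61% of genes called). betaTub85D was lower in chinmoST at 3 of 3 ages in 10 of the 11 types, with late spermatids as the exception. In hub cells and the cyst cell types it was lower together with the 19 germline genes. Their median log2 fold change was -1.06 in hub cells and -1.36, -0.59 and -0.41 in early, intermediate and late cyst cells. betaTub85D itself gave -1.30, -1.58, -0.90 and -0.82 in these types. In CySCs the list had a median of -0.05 over 6 tested genes, near the 0.04 of all genes. Its sum there was higher in chinmoST at 9–11 d (383 CPM in wild-type, 452 CPM in chinmoST). With age as a block betaTub85D was called in hub cells (-1.21, SE 0.30, adjusted p = 0.0430, with 6.05% of genes called). It was also called in intermediate cyst cells (-0.89, SE 0.15, adjusted p = 0.00410, with 19.6% of genes called). In late cyst cells it was called at -0.79 (SE 0.18, adjusted p = 0.0307, with 2.49% of genes called). Without wild-type 3–5 d the fold changes in these 3 types, fitted without the block, were -0.47, -0.55 and -0.47.

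alphaTub67C (FBgn0087040, 3L, 9681268 to 9683370, plus strand), the alpha tubulin that mothers load into the egg, gave 21 UMIs in all kept cells. They were spread over 8 types, with at most 8 in a type, and no level is read from them.

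gammaTub23C (FBgn0260639, 2L, 2972891 to 2974858, plus strand), the gamma tubulin of most fly cells, was most abundant in early germ cells. In GSCs/spermatogonia it stood at 84.7, 0 and 0 CPM in wild-type libraries, against 77.4, 43.7 and 40.7 CPM in the chinmoST ones. The 0 values come from 6 and 4 cells, where 3 counts would be 138 and 139 CPM, so no lower level can be read from them. In early spermatocytes it stood at 45.2, 20.2 and 41.6 CPM in wild-type libraries, against 33.7, 39.8 and 38.7 CPM in the chinmoST ones, and in early spermatids at 13.8 to 16.5 CPM in all 6 libraries. Intermediate spermatocytes had 13.3, 17.3 and 14.5 CPM in wild-type libraries, against 16.9, 22.0 and 47.3 CPM in the chinmoST ones, while late cyst cells had 4.36 to 7.12 CPM.

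gammaTub37C (FBgn0010097, 2L, 19183863 to 19185726, minus strand), the maternal gamma tubulin of the ovary and early embryo, had 173 UMIs, and 78.6% of them were in GSCs/spermatogonia. There it had 6, 0 and 1 UMIs in wild-type libraries, or 9.97, 0 and 46.5 CPM, and 34, 40 and 55 UMIs in chinmoST, or 16.2, 9.56 and 6.06 CPM. The mutant held 49, 211 and 162 cells of this type. The later wild-type libraries, with floors of 138 and 139 CPM, could not show a level of this size. Outside that type early spermatids had 14 UMIs and each remaining type at most 6.

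Other genes of microtubule biology were taken as lists chosen with earlier results of these data known. CCT1, a subunit of the chaperonin that folds tubulin and actin, rose in chinmoST early spermatocytes, from 91.0 ± 14.4 to 189 ± 22.4 CPM (log2 fold change 1.27, SE 0.25, adjusted p = 0.0411). It was lost as a call without either the 6–8 d or the 9–11 d library of either genotype (adjusted p = 0.130 to 0.231). In each of those fits 0 of all genes were called in this type, and the CCT1 fold change was 1.11 to 1.28. CCT1 was the 1 call among 14 folding genes tested there, beside 4.03% of all 6501 genes called. The median of the 14 was 0.46 against 0.06 for all genes. Folding medians were 0.24 to 0.61 in 10 of the 11 types and 0.03 in CySCs. In GSCs/spermatogonia the folding median equaled that of all genes, at 0.415 for both, and in CySCs that of all genes was 0.04. Over the 11 types edgeR called 0 to 4.03% of all genes. No other gene was called in any type among the folding genes, 10 genes of the gamma tubulin ring complex, 14 of tubulin modification, 14 of microtubule dynamics and 2 tubulin-like genes. Medians of these 4 lists in early spermatocytes were -0.25, -0.30, -0.05 and -0.55. In GSCs/spermatogonia the dynamics list had a median of 1.45 over 13 tested genes, against 0.42 for all genes there, with 0 called.

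Both tubulin-like genes resembled betaTub85D in being germline transcripts but differed in timing. betaTub65B, a relative of the beta tubulins, had wild-type means of 235 ± 10.8 CPM in early spermatids and 476 ± 68.8 CPM in late spermatids, and was higher in late than in early spermatids in 6 of 6 libraries. CG7794 had 239 ± 37.1 and 200 ± 13.2 CPM in these types.

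The genes most like a tubulin gene over the 17 wild-type cell types, by Pearson r of log2(mean CPM + 1) among 7224 genes, are given as a description. All points share the same 3 libraries. For betaTub85D they were ttm2 (0.997), CG30270 (0.996) and CG5217 (0.996), each highest in early spermatids. For alphaTub85E they were Cpr67Fb (0.973), Ugt36F1 (0.955) and CG34460 (0.948). For betaTub97EF they were Timp (0.931), CG9743 (0.923) and D2hgdh (0.911). The widely used alphaTub84B had no close match, with CG4627 (0.828), sordd1 (0.797) and Mic26-27 (0.796) first.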

How the data were processed

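Testes of wild-type and chinmoST males were profiled by droplet RNA sequencing, 1 library per genotype and age (3–5, 6–8 and 9–11 d). Per the study's methods and the submitters' processing notes, the authors aligned reads to dm6 with Cell Ranger 4.0.0 and processed the counts with Seurat 3.2.2. The deposited matrices hold whole-number UMI counts per gene and barcode, without normalization. The deposited table of cells gives each kept cell's library, cluster, cell type and mitochondrial percent, which the authors computed. The authors kept barcodes with 200 to 6000 genes and under 10% mitochondrial UMIs. No doublet caller was run on their set of cells. Symbols came from the files' identifiers by the BDGP6 annotation, for 17537 of 17612 genes, of which betaTub60D was paired by its identical counts.

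UMI counts were summed per library and type. The 6 germline types, hub cells, CySCs and the cyst cell types (11 types), with libraries of at least 3 cells, were tested with the edgeR 4.0.16 quasi-likelihood F-test in R 4.3.3 (TMM scaling, filterByExpr, genotype alone in the model, Benjamini-Hochberg adjustment over all genes of a type). Adjusted p-values are from this test unless DESeq2 1.42.0, the block or a permutation test is named, and SEs are the fitted log2 coefficient over the square root of F. The test was first tried on simulated counts. Shares were compared by exact two-sided permutation tests over libraries. Intervals are 95% exact binomial. A count of 0 was read against 3 counts. p-values measure the spread between libraries of different ages. Python 3.11.15 with numpy 2.4.6, pandas 2.3.3, scipy 1.17.1 and matplotlib 3.10.9 did the other steps.

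Both genotypes were sampled at the same ages. Deviations of same-age libraries from their genotype means correlated over 0.1 at every age in 8 of the 11 types, where block results are given beside a call they change. In each remaining type a single age fell below 0.1. It was 6–8 d in early cyst cells (0.08, beside 0.74 and 0.47) and in early spermatocytes (0.02, beside 0.52 and 0.45). In GSCs/spermatogonia it was 9–11 d (-0.0026, beside 0.18 and 0.22). Block results for these types are given in the closing section. Alternatives were DESeq2, RLE size factors, no low count filter, age as a block, at least 10 cells, a common minimum of 2105 UMIs per cell, cells averaged in place of summed UMIs, other thinning depths and each library left out.

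Named genes were all 10 tubulin genes, list genes past an adjusted p of 0.05 (at most 4 per list and type), free RNA lists as sums, and the 3 most similar genes of 4 tubulin genes reaching 50 CPM in a type. The tubulin genes, lists and tests were chosen with earlier results of these data known.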

Additional observations from a re-analysis of the deposited data

Results flagged for a closer look

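betaTub60D differed in sign between 2 cell types of chinmoST, with values that did not pass the edgeR threshold. In late spermatids it was higher at 3 of 3 ages (log2 fold change 0.91, from 8 to 26 UMIs per library, with the sum of the 10 somatic genes also higher at each age). In CySCs it was lower at 3 of 3 ages (-1.49). The difference between the types was not tested. gammaTub23C was higher at 3 of 3 ages in intermediate spermatocytes (0.74) and lower at 3 of 3 ages in late cyst cells (-0.37). Again there was no test of the difference and no pass. The intermediate spermatocytes of a library held 296278 to 1183920 UMIs of all genes, so the value there rests on few gammaTub23C UMIs. In intermediate spermatocytes the value was 0.29 without chinmoST 9–11 d, and the GSCs/spermatogonia markers, of the type highest in gammaTub23C, were also higher there at each age (7.41, 7.59 and 9.04 CPM in wild-type, 16.9, 41.4 and 56.1 CPM in chinmoST).

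Barcodes with over 6000 genes, which the authors removed and no comparison used, also held gammaTub23C, at 20.4, 27.9 and 41.2 CPM in the chinmoST libraries of 3–5, 6–8 and 9–11 d and at 15.9, 15.4 and 15.8 CPM in the wild-type ones.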

How the results depend on the processing

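The alternatives for cells that share a barcode with another library, and for early spermatocytes with no GSCs/spermatogonia marker, were chosen after seeing the data. The count of tubulin gene and type pairs called between genotypes, 0 of 76 in edgeR, was 3 with DESeq2, 1 without the filter on low counts (betaTub56D in early spermatocytes, where 9.09% of genes were called), 1 with the common UMI minimum (betaTub85D in GSCs/spermatogonia, -2.54, adjusted p = 0.0350, 3.62% of genes called) and 0 with RLE factors or at least 10 cells. Leaving out 1 library gave 0 to 3 calls. Without wild-type 3–5 d these were betaTub56D in early spermatocytes (2.43, 13.6% of genes called) and intermediate spermatocytes (1.04, 6.56%), and without chinmoST 3–5 d they were betaTub85D in GSCs/spermatogonia (-2.09, 32.9% of genes called), and betaTub56D (1.60) and alphaTub85E (-1.69) in early spermatocytes (20.1%). The alphaTub85E fold change in early spermatocytes was 0.00094 without wild-type 3–5 d, against -0.62.

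With age as a replicate block 10 of 76 pairs were called, 3 higher and 7 lower. Over all genes the block also called more than the main test in each of the 11 types. Its share ran from 79 of 6472 genes in late spermatids to 1784 of 6501 in early spermatocytes. In 3 types a single age did not pair the libraries, while the other ages did. There the block called betaTub85D in GSCs/spermatogonia (-2.06, adjusted p = 0.0495, 1.38% of genes called). It also called betaTub85D in early cyst cells (-1.63, adjusted p = 0.0186, 6.17% called). In early spermatocytes it called betaTub56D (1.77, adjusted p = 2.83e-06, 27.4% called). The block changed no other call beyond those given in the text. Exact sign flips within ages, the block for the shares, cannot go below p = 0.25. The exact permutation p of the betaTub85D share, 0.1 in every germline type, became 0.3 in GSCs/spermatogonia with cells averaged, and 0.2 in late spermatocytes and 0.4 in early spermatids with the common UMI minimum.

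Without 1 library the betaTub85D share difference ranged from -45.2 to -15.6 points in GSCs/spermatogonia, -20.3 to -15.9 in early spermatocytes, -3.30 to -2.78 and -3.83 to -2.74 in intermediate and late spermatocytes, and -0.635 to -0.259 and -0.983 to -0.345 in early and late spermatids. That of alphaTub85E ranged from -33.0 to -15.7 in hub cells, -1.35 to -0.0766 in CySCs, -6.96 to -1.54 in early cyst cells, -4.41 to 1.55 in intermediate cyst cells and -5.28 to 0.0577 in late cyst cells. The highest values of the last 2 types came without wild-type 9–11 d and reversed the direction. By UMIs per cell in place of CPM, hub cells had the most alphaTub84B, alphaTub85E, betaTub56D and betaTub97EF, and late spermatids the most alphaTub84D and betaTub85D. Depth limits the wild-type GSCs/spermatogonia most, at 6 and 4 cells in the later libraries.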

Other observations

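The removed barcodes with over 6000 genes held 47.4 to 76.4% of the UMIs of a library, and 2 of the beta tubulins, chosen after their values were seen, differed there by genotype at each age. betaTub85D stood there at 3195, 3297 and 3577 CPM in wild-type libraries and at 2828, 2226 and 1505 CPM in chinmoST ones. betaTub56D stood at 35.2, 56.3 and 91.3 CPM in wild-type libraries, against 91.0, 183 and 395 CPM in chinmoST ones. Not every tubulin gene kept its direction over the ages there, since betaTub60D was lower in chinmoST at 6–8 d (33.7 against 19.8 CPM) and 9–11 d (48.0 against 20.2 CPM), but higher at 3–5 d. These barcodes have no cell type in the table of cells, so no stage can be given to them.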
